A study of Mus musculus with 64 samples.

Results

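The Hoxa cluster genes analysed here are 9 neighbouring homeobox genes on mouse chromosome 6, Hoxa2, Hoxa3, Hoxa4, Hoxa5, Hoxa6, Hoxa7, Hoxa9, Hoxa10 and Hoxa11, out of 21938 protein-coding genes annotated on chromosomes 1 to 19, X and Y. A chromatin immunoprecipitation (ChIP–seq) peak was assigned to a gene when its summit, the position of highest enrichment, lay inside the gene body or within 5 kb of either end. The 9 windows together covered 93.4 kb, chr6:52157417-52250810 on the mm10 build, and 70.6% of that stretch lay in more than 1 window, because the annotated body of Hoxa3 (52169062 to 52213336) runs past Hoxa4, Hoxa5 and Hoxa6. Neighbouring genes therefore shared peaks, and their values are not independent of each other.

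Peak lists were available for 60 of 64 samples, covering 5 targets (SOX2, β-catenin, LEF1, TCF7L1 and TCF7L2, the last pair labelled TCF3 and TCF4) in 4 conditions with 3 replicates each; the other 4 samples were inputs without a list. All cells derived from the HM1 TetON mouse embryonic stem cell line, which constitutively expresses rtTA and served as the study's wild type. All samples carried the same time label. Naive ESCs were this wild-type line in 2i medium, which holds the WNT agonist CHIR99021 together with PD0325901. CEpiLCs (caudal epiblast-like cells) were the same wild-type line differentiated with FGF and the WNT secretion inhibitor LGK974 and then given CHIR99021. Naive ESCs and CEpiLCs thus both received the WNT agonist. SOX2-ON and SOX2-OFF cells came from a single engineered clonal line, SOX2-TetON, in which the endogenous Sox2 gene had been ablated and a Sox2 transgene at Hprt was driven by doxycycline, with the drug kept (ON) or withdrawn (OFF) during the same differentiation. SOX2 was thus high by design in naive ESCs and SOX2-ON cells and low in CEpiLCs and SOX2-OFF cells, and in any comparison of CEpiLCs with SOX2-ON or SOX2-OFF cells the line and the SOX2 level cannot be told apart. The lists hold no expression values, so neither the SOX2 level nor the cell identity could be checked beyond occupancy at marker genes.

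Hox genes encode transcription factors that give cells their position along the head-to-tail axis. Genes at the Hoxa2 end of the cluster are switched on earlier and further forward in the embryo than genes at the Hoxa11 end, and WNT signalling in the caudal epiblast, acting in part through CDX factors, contributes to their activation. β-catenin does not bind DNA itself and is brought to it by LEF1, TCF7L1 and TCF7L2, members of the TCF/LEF family, while SOX2 is an HMG-box factor that holds pluripotent cells in their state and is retained at lower levels in caudal progenitors.

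The lists differed widely in length, from 1628 to 991719 peaks, and 10 of 60 held fewer than 20000. Occupancy was therefore read among the 20000 strongest peaks of each list by fold enrichment over background (column 7 of the peak file), and with all deposited peaks alongside. The rank score of a gene in a library was log10(20000/rank) of its strongest peak, and 0 without a peak among the 20000. Because a gene found in a very short list gets a small rank and hence a high score, the detection calls and limma counts were also computed with the lists of a target brought to equal length, which changes nothing for SOX2, whose lists all held more than 20000 peaks. The number of reads is unknown, and in bulk chromatin fewer occupied cells and less occupancy per cell cannot be told apart.

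Across the cluster 1368 peaks lay in all lists, in 56 of 60 libraries, and 329 lay among the 20000 strongest, in 49 of 60. Of those 329 peaks, 216 (65.7%) came from the 15 CEpiLC libraries, 45 (13.7%) from naive ESC, 32 (9.73%) from SOX2-ON and 36 (10.9%) from SOX2-OFF. In each of the 15 CEpiLC libraries, whichever factor had been precipitated, a strong peak was present at Hoxa3, at Hoxa4 and at Hoxa5. Hoxa3 and Hoxa4 often shared the same peak. Of all genes, from 4.11% (TCF7L1 replicate 1) to 41.2% (TCF7L2 replicate 3) had a strong peak in a given CEpiLC library. The share of genes with one in all 15 was not computed. Nor were genome-wide shares for the other counts by condition, here or below, so they are not read as particular to the cluster.

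**Figure D1:**
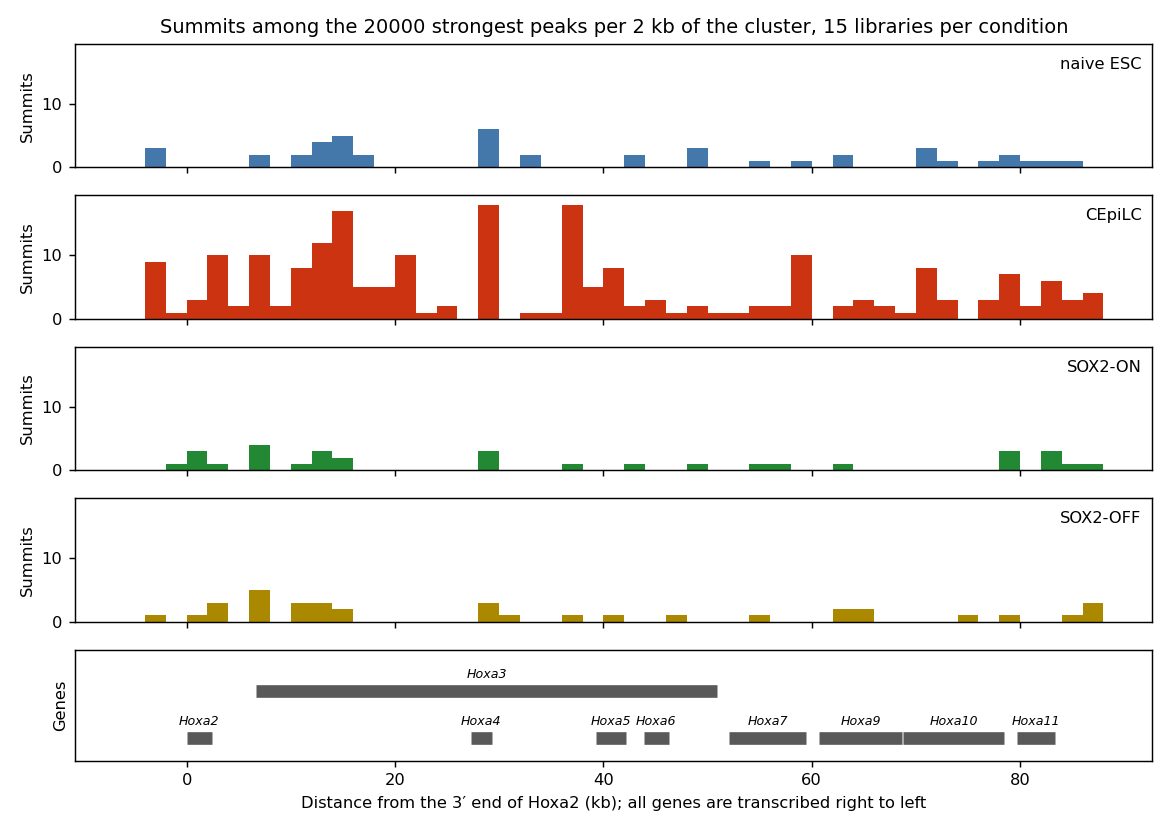
Number of peak summits among the 20000 strongest of each list (y axis) per 2 kb along the cluster (x axis, kb from the 3′ end of Hoxa2), summed over the 15 libraries of each condition, above the positions of the 9 genes. The CEpiLC row holds 216 of the 329 summits and has its tallest columns at Hoxa4 and on the Hoxa4 side of Hoxa5.

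Joining summits no more than 200 bp apart gave 101 sites, of which 60 came from a single library and 49 were seen in CEpiLC libraries alone. At 12 sites some target had a summit in 3 of 3 CEpiLC libraries, against 0 sites in naive ESCs, 0 in SOX2-ON and 2 in SOX2-OFF cells. The like counts over all sites of the genome were not computed. The 6 sites with summits from the most libraries are described next. The genome sequence 100 bp either side of the median summit (mm10, plus strand, RefSeq GRCm38.p6) is printed for the 5 that do not touch an untranslated region, to show what the most often occupied DNA holds. Capitals mark short words typical of the factors' motifs, searched on both strands: CTTTGAA or CTTTGAT for TCF/LEF, CATTGT or CTTTGT for SOX, and TTTATGG or TTTATTG for CDX, the last because CDX factors act on Hox genes. The TCF/LEF and SOX words differ at their sixth base, so no start position counts for both.

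Site 1, chr6:52190848-52191048: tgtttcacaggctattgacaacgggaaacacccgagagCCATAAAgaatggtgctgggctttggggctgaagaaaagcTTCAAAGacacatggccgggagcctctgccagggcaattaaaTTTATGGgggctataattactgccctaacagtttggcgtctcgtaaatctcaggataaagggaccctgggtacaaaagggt
Site 2, chr6:52177004-52177204: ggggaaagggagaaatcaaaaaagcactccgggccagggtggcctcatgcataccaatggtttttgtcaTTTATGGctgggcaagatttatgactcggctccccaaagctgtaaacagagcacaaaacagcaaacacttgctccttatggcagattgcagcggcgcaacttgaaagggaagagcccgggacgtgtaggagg
Site 3, chr6:52168682-52168882: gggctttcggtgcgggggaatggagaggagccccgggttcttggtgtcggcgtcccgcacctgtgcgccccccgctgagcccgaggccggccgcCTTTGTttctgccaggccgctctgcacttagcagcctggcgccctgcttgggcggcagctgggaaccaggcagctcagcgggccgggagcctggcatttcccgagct
Site 4, chr6:52175243-52175443: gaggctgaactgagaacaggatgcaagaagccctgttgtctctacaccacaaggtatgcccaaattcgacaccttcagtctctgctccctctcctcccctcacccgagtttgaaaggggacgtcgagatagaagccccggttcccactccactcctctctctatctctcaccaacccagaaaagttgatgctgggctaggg
Site 6, chr6:52165127-52165327: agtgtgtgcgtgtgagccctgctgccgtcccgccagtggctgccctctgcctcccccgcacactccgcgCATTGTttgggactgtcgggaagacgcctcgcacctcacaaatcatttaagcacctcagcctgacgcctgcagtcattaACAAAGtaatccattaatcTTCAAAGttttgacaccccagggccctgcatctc

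Site 1, the most widely occupied, had its median summit at 52190948 in the Hoxa4 intron, 805 bp downstream of the Hoxa4 start, which also lies within introns of Hoxa3, of the read-through gene Gm28308 and of the antisense transcript Hoxaas3. It had summits from 25 libraries of all 5 targets. Of the 597757 sites joined in the same way across the genome, 0.576% had as many. This share is no measure of rarity, because site 1 was picked as the Hoxa site with summits from the most libraries. Its window holds the TCF/LEF word CTTTGAA on the minus strand, 22 bp before the median summit at its first base, and the CDX word TTTATGG on each strand.

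Site 2 (median summit 52177104, an intron of Hoxa3, 21 libraries) holds 1 TTTATGG. Site 3 (52168782, 19 libraries, in an exon of the non-coding transcript Hoxaas2 and 3951 bp upstream of the Hoxa2 start) holds the SOX word CTTTGT 6 bp before the summit. Site 4 (52175343, an intron of Hoxa3, 14 libraries) holds none of these words. Site 5 (52172685, 14 libraries) fell in an untranslated region of Hoxa3. Site 6 (52165227, 396 bp upstream of the Hoxa2 start, 11 libraries) holds CTTTGAA once and both SOX words. As background, 11.7% of all sites genome-wide held a TCF/LEF word in a window of 201 bp, 30.2% a SOX word and 7.04% a CDX word, and among the 14552 sites seen in at least 11 libraries the shares were 37.0%, 46.8% and 5.21%. Of the 101 Hoxa sites, 9.90% held a TCF/LEF word, 27.7% a SOX word and 12.9% a CDX word. The median GC content of the Hoxa windows was 52.7%, against 45.8% over all sites. These matches describe the letters and do not show which factor bound there.

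At site 1 a summit among the 20000 strongest was found in 14 of 15 CEpiLC libraries and in 6 of the 15 from naive ESCs. Only 3 of 15 SOX2-ON libraries had one, and 2 of 15 SOX2-OFF libraries. At site 2 the numbers were 12, 5, 2 and 2. Site 3 was more evenly shared, with 8, 2, 4 and 5, and for SOX2 it was present in 3 of 3 CEpiLC, 3 of 3 SOX2-OFF, 2 of 3 SOX2-ON and 1 of 3 naive ESC libraries. Site 5 was found in 3 of 3 CEpiLC and 3 of 3 SOX2-OFF libraries for TCF7L2. Sites 4 and 6 were present in 7 and 8 CEpiLC libraries, and at most 3 of any other condition.

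**Figure D2:**
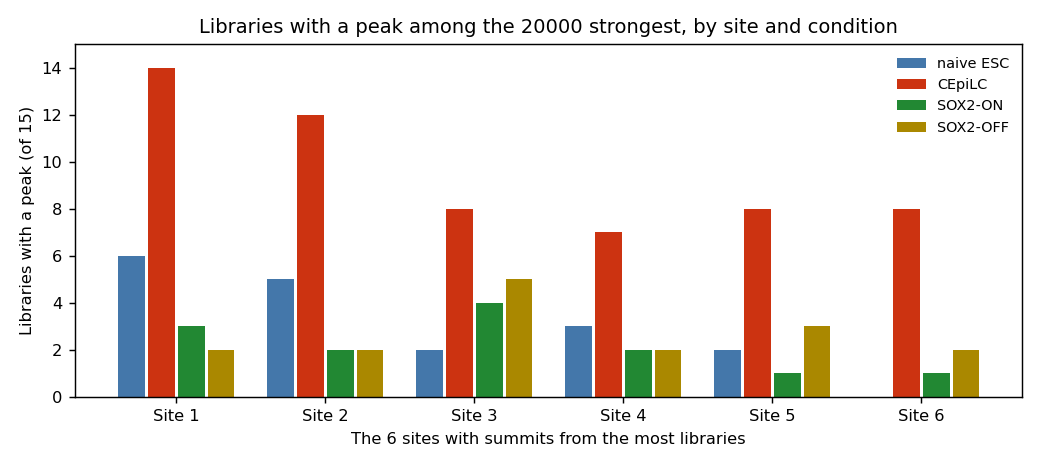
Number of libraries of 15 (y axis) with a summit among the 20000 strongest at each of the 6 sites (x axis), coloured by condition. CEpiLC has the tallest bar at every one of the 6 sites, from 7 to 14 libraries, and SOX2-OFF comes closest to it at site 3.

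Site 1 set the value of Hoxa4, an anterior member of the cluster, in most libraries. In β-catenin libraries the fold of the strongest Hoxa4 peak was 48.1, 24.5 and 19.8 in CEpiLCs, at ranks 106, 695 and 777 of their lists. It was 32.7, 4.41 and 7.86 in naive ESCs, 11.4, 4.05 and 5.03 in SOX2-ON cells, and 7.14 in 1 SOX2-OFF library with no peak in the other 2. All CEpiLC folds but the highest lay below that of naive ESC replicate 1, which stood apart from the other 2 naive libraries, so on the fold scale these groups overlapped. On the rank scale they did not, as that naive peak ranked only 1060.

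For SOX2 itself the strongest Hoxa4 peak reached folds of 26.3, 16.1 and 20.2 in CEpiLCs (ranks 291, 1123 and 963). Naive ESCs had 1 peak of fold 11.0 at rank 13396 and no peak in the other 2 libraries. SOX2-ON had folds of 5.04 and 6.47 and no peak in replicate 2, and SOX2-OFF had 5.39 and 8.60 and no peak in replicate 1. All 3 CEpiLC libraries thus lay above all 9 others, although CEpiLCs are a low-SOX2 condition. The share of all genes with such a separation was not computed, here or at the other members, so it is not read as particular to Hoxa4.

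LEF1 gave Hoxa4 folds of 21.0, 14.0 and 12.7 in CEpiLCs. Naive ESC replicate 2 reached 16.9 at rank 353, replicate 3 had 7.60 at rank 107436 and replicate 1 had no peak, so that the naive libraries ranged from none to the CEpiLC level. SOX2-ON had 8.21, 4.15 and 4.20, and SOX2-OFF had 4.83 in 1 library and no peak in the other 2.

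TCF7L1, which mostly acts as a repressor in pluripotent cells, had Hoxa4 folds of 7.92, 9.32 and 7.17 in CEpiLCs and of 12.5 and 9.32 in 2 of 3 naive ESC libraries. The CEpiLC folds were no higher than these naive ones, but stood at ranks 862, 1868 and 2668, in lists of 1628, 230001 and 74815 peaks, against ranks 8856 and 20036 in lists of 660387 and 117055. For TCF7L2 the CEpiLC folds were 10.7, 10.2 and 6.45 and the naive ESC folds 6.41, 4.92 and 7.58, which overlapped.

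Hoxa5 differed from Hoxa4 in that naive ESCs had hardly any strong peak there: 15 of 15 CEpiLC libraries held one among the 20000 strongest, against 2 from naive ESCs, 2 from SOX2-ON cells and 3 from SOX2-OFF cells. The β-catenin folds were 27.5, 15.7 and 11.1 in CEpiLCs. They were 7.82, 5.34 and 4.88 in naive ESCs, 7.88, none and 5.70 in SOX2-ON, and 7.52, none and 3.75 in SOX2-OFF, so the CEpiLC libraries lay above all others. The SOX2 folds were 14.0, 10.8 and 13.1 in CEpiLCs against 7.64, 3.93 and 4.82 in naive ESCs, 6.66, none and 6.10 in SOX2-ON, and 4.33, 4.76 and 6.72 in SOX2-OFF, again with no overlap. No share over all genes stands beside these counts and separations either.

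LEF1 folds at Hoxa5 were 8.43, 9.10 and 7.49 in CEpiLCs and 3.75, 3.30 and 8.48 in naive ESCs, the last at rank 71473. The TCF7L1 folds of 5.36, 9.04 and 6.92 in CEpiLCs stood at ranks 1459, 1927 and 3507, whereas naive ESCs had 5.498 and 5.76 at ranks 91321 and 45297 and no peak in replicate 2. For TCF7L2 they were 8.03, 8.15 and 11.6 in CEpiLCs, and 6.08 and 6.58 with no peak in replicate 1 in naive ESCs. Strong Hoxa5 peaks lay largely at 2 sites between Hoxa4 and Hoxa5, with median summits at 52199662 and 52200045, 4925 and 4542 bp downstream of the Hoxa5 start. Both are introns of Hoxa3 in the annotation. They were singled out after their values were seen: each had summits from 10 libraries, 9 of them CEpiLC and 0 naive ESC.

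**Figure D3:**
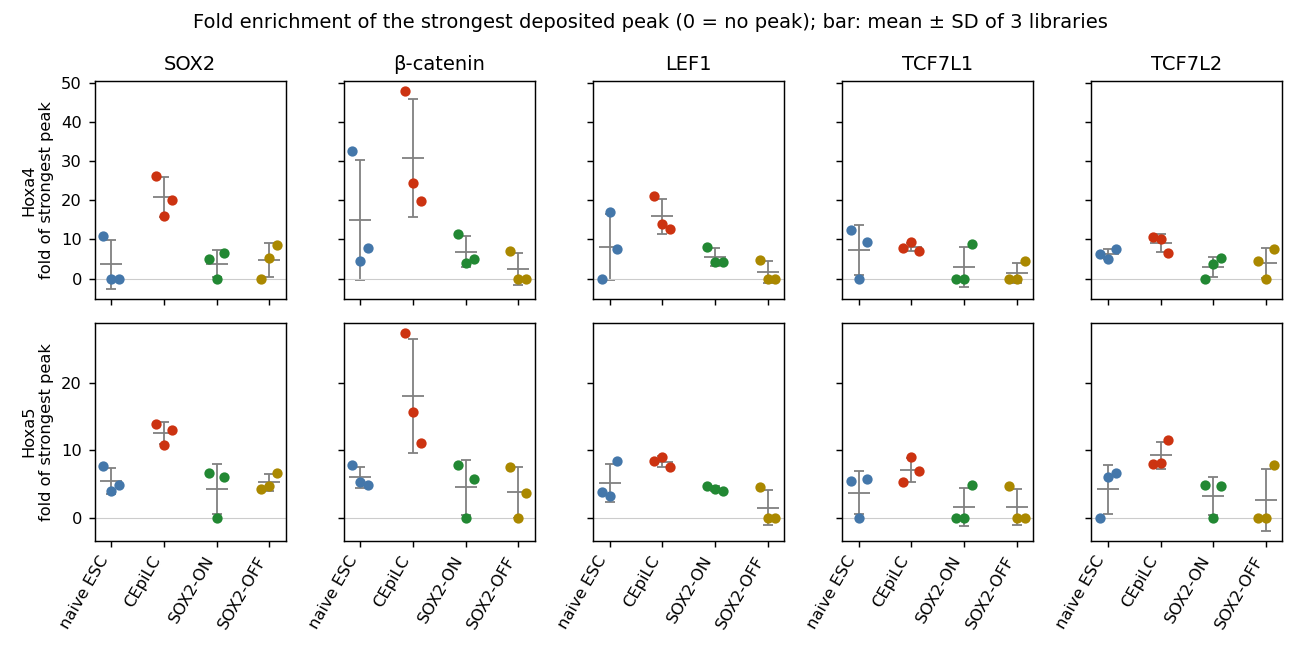
Fold enrichment (y axis) of the strongest deposited peak at Hoxa4 (top) and Hoxa5 (bottom) in each library by condition (x axis), with 1 panel per target; points are libraries, 0 means no peak, and bars give the mean ± SD of 3 libraries. CEpiLC points are highest for SOX2 at both genes, whereas naive ESC replicate 1 of β-catenin (32.7) reaches into the CEpiLC range at Hoxa4.

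Hoxa3 holds site 1 and sites 2, 4 and 5 in its long body and took its value from site 1 in many libraries, so its strongest fold in β-catenin and LEF1 CEpiLC libraries was identical to that of Hoxa4. It had a strong peak in 45 of 60 libraries, the most of any member, among them 12 of 15 naive ESC libraries. For TCF7L2 its folds were 10.7, 13.7 and 11.6 in CEpiLCs, 7.64, 7.50 and 7.58 in naive ESCs, 11.7, 5.44 and 8.10 in SOX2-ON and 4.99, 5.28 and 7.89 in SOX2-OFF. CEpiLC and SOX2-ON libraries overlapped there.

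Hoxa2, which patterns the hindbrain and second branchial arch, was marked most by SOX2. Its SOX2 folds were 11.1, 15.4 and 21.6 in CEpiLCs, at ranks 2448, 1251 and 829. They were 8.97, 7.64 and 5.31 in naive ESCs, 9.27, 7.07 and 11.6 in SOX2-ON, and 7.78, 8.16 and 11.6 in SOX2-OFF. SOX2-ON and SOX2-OFF overlapped the lowest CEpiLC library, which was not so at Hoxa4 and Hoxa5. Its β-catenin folds were 8.62, 9.86 and 5.46 in CEpiLCs and reached 8.90 in SOX2-ON and 8.57 in SOX2-OFF.

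The Hoxa9 end was weaker. Hoxa7 and Hoxa9, members of the central and posterior groups, shared the same strongest β-catenin peak in CEpiLCs, with folds of 10.3, 6.31 and 7.69. Naive ESC replicate 1 was higher, at 12.9, with 6.11 and 4.16 at Hoxa7 in the other 2. Much of this came from a site at 52222119, 265 bp upstream of the Hoxa7 start, seen in 9 CEpiLC and 1 naive ESC library and likewise singled out after its values were seen. Hoxa7 had strong peaks in 12 of 15 CEpiLC libraries and Hoxa9 in 14 of 15, against 5 of 15 naive ESC libraries for each.

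Hoxa10 and Hoxa11, which act in the posterior trunk, limbs and reproductive tract, had β-catenin folds in CEpiLCs of 5.56, 5.87 and 4.36 and of 6.79, 5.87 and 4.91. Naive ESCs had 5.29, 6.98 and 4.79 and 5.29, 6.98 and 3.74, so the folds overlapped while the ranks did not. LEF1 naive ESC replicate 1 stood apart here, with a peak of fold 7.25 at rank 1174 in both windows. Over all 60 libraries their strong peaks reached at most 13.3-fold. Hoxa6 was the least occupied member: 17 of 60 libraries held a strong peak, with folds from 3.87 to 8.15, and 9 of those were CEpiLC, 4 naive ESC, 2 SOX2-ON and 2 SOX2-OFF.

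**Figure D4:**
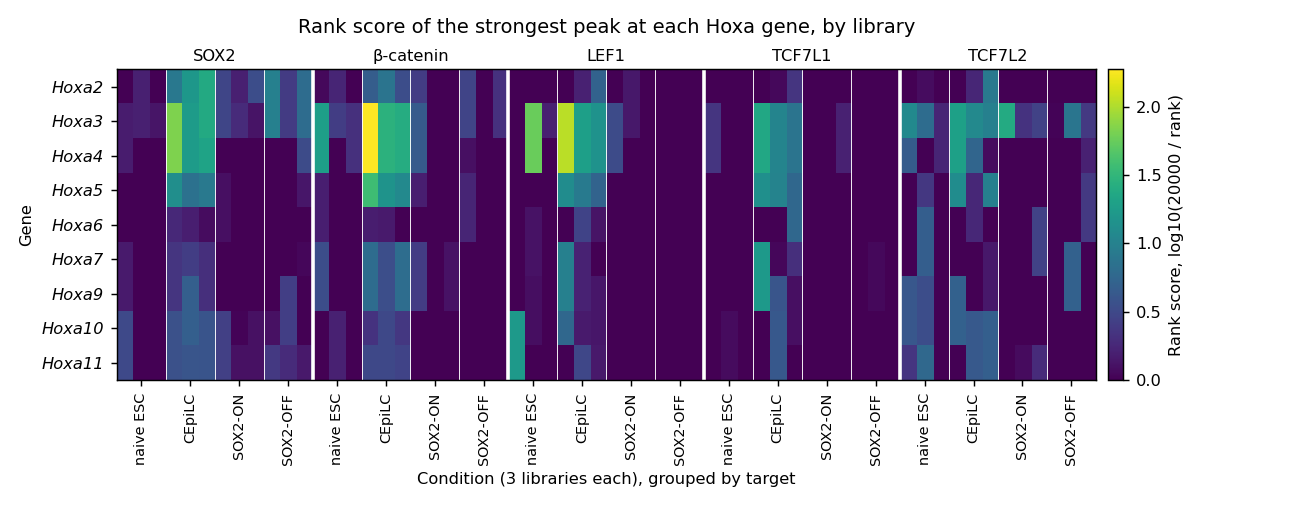
Rank score (colour, log10 of 20000 divided by the rank of the strongest peak, 0 if none) of the 9 genes (rows) in the 60 libraries (columns, 3 replicates per condition within each target). Each of the 15 CEpiLC columns has a score above 0 at Hoxa3, Hoxa4 and Hoxa5, the weakest at Hoxa4 in TCF7L2 replicate 3, and Hoxa6 is dark in most columns.

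The first comparison asked how occupancy at the cluster differed between CEpiLCs and naive ESCs, both wild type but in different media and states of differentiation. By rank score, limma (adjusted p over all genes tested) placed 5 of 9 members higher in CEpiLCs for SOX2, where 9.15% of 12214 genes tested were higher. Hoxa4 rose by 1.41 ± 0.20 (SE, adjusted p = 0.00013 in limma), Hoxa3 by 1.32 ± 0.21, Hoxa2 by 1.10 ± 0.21, Hoxa5 by 0.97 ± 0.16 and Hoxa7 by 0.30 ± 0.10, and the members' median was 0.45 against 0.04 over all genes. For β-catenin 8 of 9 were higher, all but Hoxa6, against 15.5% of 10500 genes. Hoxa5 rose by 1.21 ± 0.16 (limma, adjusted p = 4.57e-05), Hoxa4 by 1.18 ± 0.29 and Hoxa3 by 1.05 ± 0.27, and the other 5 by 0.33 to 0.60. The members' median was 0.55, and that of all genes 0.02.

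The TCF/LEF factors showed fewer calls. For LEF1 only Hoxa5 passed, at 0.92 ± 0.24 (limma, adjusted p = 0.0413), against 1.92% of 11449 genes higher. Hoxa3 and Hoxa4 had differences of 0.84 ± 0.37 and 0.91 ± 0.38 that did not pass. For TCF7L1, where 6 members had peaks in enough libraries to be tested, Hoxa3, Hoxa4 and Hoxa5 were higher by 0.97, 0.97 and 0.97 (SE 0.19, 0.19 and 0.16), against 1.38% of 10578 genes. TCF7L2 gave 0 of 9, with 2 members at an unadjusted p under 0.05 in limma and 1.21% of 12275 genes higher.

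The following limits bear on these counts. The filter required a strong peak in at least 3 of 12 libraries, and some members passed it only through the CEpiLC libraries. They were Hoxa4, Hoxa5 and Hoxa6 for SOX2, and Hoxa6, Hoxa10 and Hoxa11 for β-catenin. For LEF1 they were 8 of 9 members (all but Hoxa3), for TCF7L1 6 of 6, and for TCF7L2 Hoxa2 and Hoxa5. The filter favoured members that were high in CEpiLCs without forcing a difference: Hoxa6 for β-catenin differed by 0.05 ± 0.09 (SE). The LEF1 and TCF7L1 calls all concern such members and give no support of their own. The same holds for the calls at Hoxa4 and Hoxa5 for SOX2 and at Hoxa10 and Hoxa11 for β-catenin. With lists of equal length only 3 members could be tested for β-catenin (Hoxa3, Hoxa4 and Hoxa5, all called), 3 for LEF1 (0 called) and 0 for TCF7L1. With log2(fold + 1) over all deposited peaks in place of the rank score, SOX2 fell from 5 to 1 (Hoxa3), and β-catenin, LEF1 and TCF7L1 to 0. On that scale the median over all genes was −0.79 for SOX2 and −1.04 for β-catenin, and the calls over all genes changed from 1117 higher and 905 lower to 135 higher and 1217 lower for SOX2. Over all contrasts, those below included, 3 of the 52 limma calls at members passed on it, 48 no longer passed and 1 changed sign (Hoxa10 for β-catenin). Leaving out a replicate number gave 3 to 6 members for SOX2, 1 to 4 for β-catenin, 0 for LEF1 and 0 to 2 for TCF7L1.

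By detection, a strong peak in 3 of 3 CEpiLC and 0 of 3 naive ESC libraries was found at Hoxa5 alone for SOX2 (3.51% of all 21938 genes), at Hoxa5 alone for LEF1 (1.34% of genes), and at Hoxa5, Hoxa7 and Hoxa9 for TCF7L1 (0.219% of genes). It was found at 0 of 9 members for β-catenin (3.41% of genes) and 0 of 9 for TCF7L2 (0.852%). No member was called in the opposite direction for any target. Among all deposited peaks 0 members were called for any target, since weak peaks were present at the members in most libraries.

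The second comparison, SOX2-OFF against SOX2-ON, asked what the SOX2 level changed within the engineered line. No member passed in limma for any of the 5 targets, and 0 members had an unadjusted p under 0.05. Over all genes tested, in either direction, 10.3% passed in the SOX2 libraries and 8.82% in those of β-catenin. The shares were smaller with LEF1 (0.603%), TCF7L1 (0.737%) and TCF7L2 (0.864%). The largest differences among members were for SOX2 at Hoxa3, 0.44 ± 0.21, and Hoxa2, 0.33 ± 0.21. By detection 0 members were called, against 3.40% (SOX2), 1.81% (β-catenin), 1.31% (LEF1), 1.30% (TCF7L1) and 1.23% (TCF7L2) of genes in either direction. These p-values do not show that both conditions were alike.

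The third comparison set SOX2-OFF against CEpiLCs, which had both been exposed to the WNT agonist with SOX2 low. Their levels need not be equal: the study calls that of CEpiLCs moderate, and holds that SOX2 in SOX2-OFF cells is probably protein left after drug withdrawal. In limma, SOX2-OFF was lower at 2 of 9 members for SOX2, against 3.01% of genes: Hoxa4 fell by 1.30 ± 0.20 (adjusted p = 0.00302) and Hoxa5 by 0.92 ± 0.16. It was lower at 7 of 9 for β-catenin, all but Hoxa2 and Hoxa6, against 5.35% of genes. Hoxa4 fell by 1.68 ± 0.29 (limma, adjusted p = 0.00524), Hoxa3 by 1.45 ± 0.27 and Hoxa5 by 1.19 ± 0.16. For TCF7L1 Hoxa3 and Hoxa4 fell by 1.09 ± 0.19 each and Hoxa5 by 0.97 ± 0.16 (limma, adjusted p = 0.029, 0.029 and 0.0289), where 0.0567% of genes were lower. Some of these members passed the filter only through CEpiLC libraries. They are Hoxa4 and Hoxa5 for SOX2, Hoxa10 and Hoxa11 for β-catenin, and all those called for TCF7L1. The filter favoured them where CEpiLCs are high, so their calls give no support of their own.

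For LEF1 and TCF7L2 the count was 0 of 9, with 6 and 5 members at an unadjusted p under 0.05 in limma, against 0.271% and 0.269% of genes lower. The LEF1 differences at Hoxa3 and Hoxa4 were −1.49 ± 0.37 and −1.49 ± 0.38. Leaving out any replicate number brought the SOX2, β-catenin and TCF7L1 counts to 0. Over all genes, calls in either direction then fell from 471 to between 0 and 2 for SOX2 and from 675 to between 0 and 18 for β-catenin, while the members' median moved from −0.44 to between −0.43 and −0.33 for SOX2 and from −0.72 to between −0.81 and −0.68 for β-catenin. With lists of equal length the 3 β-catenin members that could be tested were all called, and 0 could be tested for TCF7L1. SOX2-OFF β-catenin replicate 2, a list of 3423 peaks, had no peak in any Hoxa window, and without it 6 of 9 members were lower for β-catenin.

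By detection, a strong peak in 0 of 3 SOX2-OFF and 3 of 3 CEpiLC libraries was found at Hoxa6 for SOX2 (2.39% of genes), at Hoxa7, Hoxa9, Hoxa10 and Hoxa11 for β-catenin (2.40%), at Hoxa3, Hoxa4, Hoxa5, Hoxa9 and Hoxa10 for LEF1 (1.19%), at Hoxa3, Hoxa4 and Hoxa5 for TCF7L1 (0.0684%), and at 0 members for TCF7L2 (1.14%). In the LEF1 SOX2-OFF libraries no member had a strong peak at all. Which members were called depended on the length of list read. With the 5000 strongest peaks the β-catenin calls were Hoxa3, Hoxa4 and Hoxa5, with none of the 4 above, as also with equal lengths, and the SOX2 calls were Hoxa4 and Hoxa5 in place of Hoxa6.

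SOX2-ON was set against CEpiLCs in the same fit, a contrast added after the data were seen. SOX2-ON was lower at 5 of 9 members for SOX2 (9.10% of genes), 8 of 9 for β-catenin (11.0%), 2 of 9 for LEF1 (2.45%; Hoxa4 and Hoxa5), 3 of 6 tested for TCF7L1 (0.454%) and 0 of 9 for TCF7L2 (1.27%; 4 members at an unadjusted p under 0.05 in limma). For Hoxa4 the SOX2 rank score was lower by 1.47 ± 0.20 and the β-catenin score by 1.498 ± 0.29. The engineered line thus had lower scores than CEpiLCs with doxycycline kept as well as withdrawn. This contrast shares its CEpiLC libraries with the one before, and also the limit of the filter. Its calls at Hoxa4 and Hoxa5 for SOX2, at Hoxa10 and Hoxa11 for β-catenin, and all for LEF1 and TCF7L1 concern members that passed only through CEpiLC libraries.

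**Figure D5:**
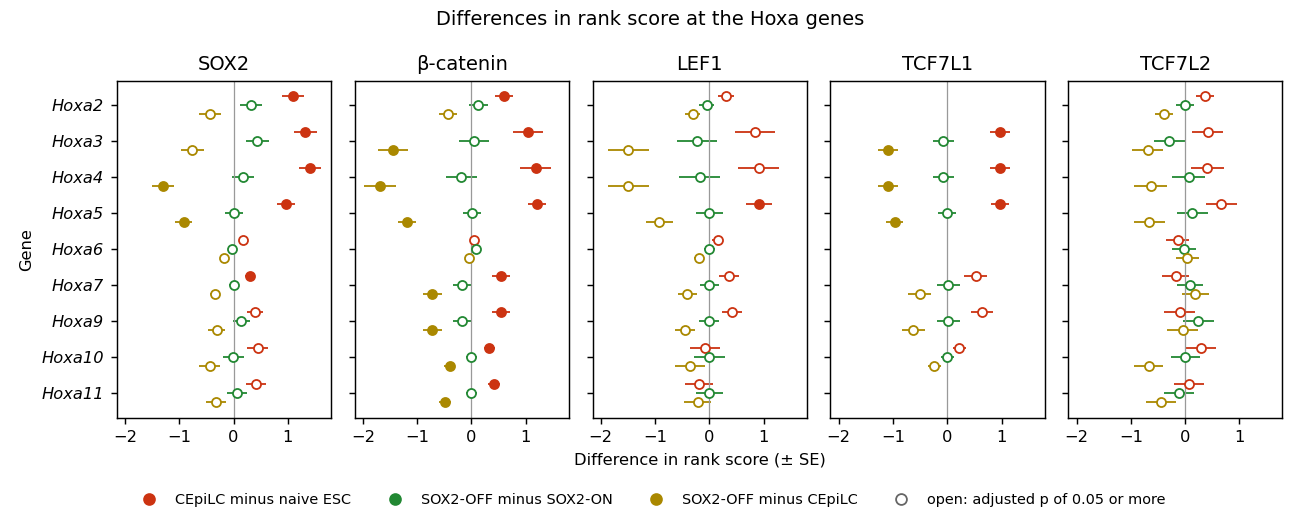
Difference in rank score (x axis, estimate ± SE from limma) at each of the 9 genes (y axis) for 3 contrasts (colours), with 1 panel per target; filled points have an adjusted p below 0.05, and Hoxa2, Hoxa6 and Hoxa11 were not tested for TCF7L1. CEpiLC minus naive ESC lies to the right and SOX2-OFF minus CEpiLC to the left at Hoxa3, Hoxa4 and Hoxa5, while all SOX2-OFF minus SOX2-ON points are open.

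Whether the low-minus-high SOX2 difference itself differed between the lines was tested as a contrast in the same limma fit. The wild-type contrast also changed the medium and the differentiation, while the engineered one changed only doxycycline. A gap between them therefore cannot be assigned to the line or to the SOX2 level alone. The test passed, with the larger value in wild-type cells, at Hoxa4 and Hoxa5 for SOX2 and for β-catenin, and at Hoxa5 for TCF7L1. Of the genes in the other Hox clusters, 3 of 28 tested passed for SOX2, 12 of 26 for β-catenin and 0 of 20 for TCF7L1, in the same direction. The share of all genes that passed is not given here, so these counts lack that background. At Hoxa5 with β-catenin, the difference was 1.21 in wild-type cells and 0.01 in the engineered line (difference 1.19 ± 0.23, limma, adjusted p = 0.0041). For LEF1 and TCF7L2 0 members passed, and 1 and 0 had an unadjusted p under 0.05 in limma. These calls rested on all 3 replicates: without any replicate number 0 members passed for SOX2 and for TCF7L1, and 0 to 1 for β-catenin, and on the log2 fold scales 0 passed for any of these targets. At Hoxa5 for TCF7L1 all 9 libraries outside CEpiLC scored 0, so the engineered contrast sat at the floor of the score and the gap is the CEpiLC score itself. For SOX2 the SOX2-ON and SOX2-OFF means were 0.032 and 0.047 at Hoxa5 and 0 and 0.172 at Hoxa4. For β-catenin they were 0.064 and 0.078 at Hoxa5 and 0.217 and 0.032 at Hoxa4. The engineered contrast thus lay near the floor there too. Hoxa4 and Hoxa5 for SOX2 and Hoxa5 for TCF7L1 had also passed the filter only through CEpiLC libraries.

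Pooling both lines, an exact permutation test of low against high SOX2 within each line (400 assignments, two-sided, smallest possible p 0.005) gave, for SOX2 occupancy, p = 0.01 at Hoxa3, where the low-SOX2 libraries were higher by 0.88, and p = 0.015 at Hoxa2, where they were higher by 0.71. Adjusted over 12214 genes these exact p-values were 0.111 and 0.138. For β-catenin the smallest was 0.04 at Hoxa2, adjusted to 0.201. No gene passed the adjusted threshold for any target. With a smallest possible p of 0.005, a gene can pass after adjustment only if very many genes have such small values. The lack of calls is therefore not read as a result. In the wild-type line low and high SOX2 also differed in medium and differentiation, so this test does not isolate the SOX2 level.

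The other Hox clusters were read as counts in limma. Of 28 Hoxb, Hoxc and Hoxd genes, 16 of 28 tested were higher in CEpiLCs and 0 lower for SOX2, and 18 of 26 were higher and 0 lower for β-catenin, beside 9.15% and 15.5% of all genes higher. The counts were smaller for LEF1 (3 of 27 higher, 0 lower), TCF7L1 (5 higher and 2 lower of 20) and TCF7L2 (2 of 28 higher, 0 lower), beside 1.92%, 1.38% and 1.21%. SOX2-OFF was lower than CEpiLCs at 6 of 28 for SOX2 and at 10 of 26 for β-catenin, with 0 higher for either. Of 14 Hox regulators and cofactors (Cdx, Meis, Pbx and retinoic acid pathway genes), 3 of 13 tested were higher in CEpiLCs and 0 lower for SOX2, and 4 of 12 were higher and 3 lower for β-catenin. Of the 6 genes flanking the cluster, 1 of 6 was higher for SOX2, and for β-catenin 1 of 4 was higher and 1 lower. The flanking genes had median differences of 0.15 for SOX2 and 0.20 for β-catenin, against 0.45 and 0.55 for the members.

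Marker genes gave a check of the labels by occupancy only, with mixed directions. For β-catenin, of the naive pluripotency genes 3 of 5 tested were lower in CEpiLCs and 1 higher, and of the caudal epiblast genes 4 of 7 were higher and 2 lower. For SOX2, 2 of 6 naive genes were lower and 2 of 7 caudal genes higher. For β-catenin, SOX2-OFF against CEpiLCs had 3 of 5 naive genes higher and 2 of 7 caudal genes lower, and SOX2-ON against CEpiLCs had 4 of 5 naive genes higher, with 2 caudal genes higher and 3 lower of 7. For SOX2 and for TCF7L1, SOX2-OFF against CEpiLCs called 0 of 6 naive and 0 of 7 caudal genes, although Hoxa members were lower there. SOX2-ON against CEpiLCs had 1 of 6 naive genes higher and 3 of 7 caudal genes lower for SOX2. The markers thus moved with the lower Hoxa scores of the engineered line only for some targets and contrasts, and their part in that result was not tested. As background, 15.5% of genes for β-catenin and 9.15% for SOX2 were higher in CEpiLCs than in naive ESCs. Lower than in CEpiLCs were 5.35% (SOX2-OFF) and 11.0% (SOX2-ON) for β-catenin, and 9.10% (SOX2-ON) for SOX2. Shares in the opposite directions are not given here, so those marker counts lack that background.

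The genes outside the Hox clusters whose rank scores over the 60 libraries most resembled the mean of the 9 members were Meis3 (Pearson r = 0.854), Thra (0.749), Dusp5 (0.724), Olfr794 (0.724) and Skida1 (0.711), out of 20670 compared. These correlations describe libraries that share list length and condition and carry no test. Meis3, a TALE homeobox gene of the family that encodes Hox cofactors, had a mean rank score of 1.19 in CEpiLC libraries, 0.00844 in naive ESC, 0.0609 in SOX2-ON and 0 in SOX2-OFF, and a strong peak in 18 of 60 libraries. Thra encodes a thyroid hormone receptor and Dusp5 a phosphatase acting on ERK kinases.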

How the data were processed

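ChIP–seq peak lists of 60 immunoprecipitated libraries were analysed. Per the labels and the study's methods, the authors aligned single-end reads to mm10 with BWA in the nf-core ChIP-seq pipeline and called narrow peaks per library with MACS2, so replicates were not pooled. The deposited lists give for each peak a fold enrichment (a ratio), a −log10 p-value and a −log10 q-value; read counts, and hence depth, are unknown, and how inputs were paired with libraries is not given in the sources used here.

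Peaks were ranked by fold within each list and assigned by summit to GENCODE vM21 genes. All 9 member promoters in the RefSeq table matched the genome used, and 0 summits lay beyond a chromosome end. Rank scores of genes with a peak among the 20000 strongest in at least 3 of 12 libraries of a target were fitted with limma 3.58.1 (R 4.3.3, trended eBayes, 1 mean per condition), with Benjamini-Hochberg adjustment over all genes tested and a threshold of 0.05; the script was tested on simulated data. Detection calls compared 3 of 3 with 0 of 3 libraries. The replicates are labelled as biological; p-values measure the spread between these libraries. Named genes are all 9 members, the 6 most widely occupied sites, and the 5 genes most like the members in pattern; other lists are given as counts. The members and lists were chosen with earlier results of these data known. Replicate numbers paired the libraries, by correlated deviations of all 3 same-numbered pairs (0.141 to 0.236), only for TCF7L1 between SOX2-ON and SOX2-OFF. Alternatives were other list lengths, flanks, filters, scales and rankings, a replicate block and leaving out replicates.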

Additional observations from a re-analysis of the deposited data

Results flagged for a closer look

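The low-minus-high SOX2 difference in rank score differed between the wild-type and the engineered line at 2 genes, Hoxa4 and Hoxa5, by the test of that difference in limma. For SOX2 occupancy it was 1.41 in wild-type cells (CEpiLC minus naive ESC) and 0.17 in the engineered line (SOX2-OFF minus SOX2-ON) at Hoxa4, a gap of 1.24 ± 0.29 (adjusted p = 0.0163 in limma), and at Hoxa5 the gap was 0.95 ± 0.23 (adjusted p = 0.0214 in limma). For β-catenin the gap was 1.37 ± 0.41 at Hoxa4 (adjusted p = 0.0406 in limma) and 1.19 ± 0.23 at Hoxa5 (adjusted p = 0.0041 in limma). For TCF7L1 it was 0.97 ± 0.23 at Hoxa5 (adjusted p = 0.0421 in limma), where all 9 libraries outside CEpiLC scored 0. The engineered contrast is 0 there because both of its groups sit at the floor of the score, so this value does not bear on a difference between the lines. For SOX2 and β-catenin both engineered groups also scored near the floor at Hoxa5, with means from 0.032 to 0.078. At Hoxa4 the SOX2-ON and SOX2-OFF means were 0 and 0.172 for SOX2 and 0.217 and 0.032 for β-catenin. Hoxa4 and Hoxa5 for SOX2 also passed the filter only through CEpiLC libraries. No SOX2 or TCF7L1 call of this contrast passed without replicate 1, 2 or 3 or on the log2 fold scales, and for β-catenin 0 to 1 members passed without a replicate and 0 on the log2 fold scales. The same test passed at 3 of 28 other Hox genes for SOX2, 12 of 26 for β-catenin and 0 of 20 for TCF7L1. The share of all genes that passed is not given here either, so these counts are not read as particular to the members. The line and the clone cannot be told apart from the SOX2 level reached in each condition. The wild-type contrast also changed the medium and the differentiation, which the engineered one did not, so these cannot be told apart from the line either.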

How the results depend on the processing

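The direction of the 52 limma calls at members reversed in 2 of 489 alternatives, and in 200 the call lost the threshold with its direction kept. Hoxa10 for β-catenin, CEpiLC minus naive ESC, turned to −0.089 with log2(fold + 1) and to −0.096 with log2(fold + 0.5) over all deposited peaks, and the cause was not tested. In the lists below, values run from the reported count to the alternative.

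Limma, CEpiLC minus naive ESC. On both log2 fold scales SOX2 went from 5 to 1, β-catenin from 8 to 0, LEF1 from 1 to 0 and TCF7L1 from 3 to 0. With 5000 strongest peaks, and with lists of equal length, β-catenin went to 3; equal length also took LEF1 and TCF7L1 to 0, where 3 members of β-catenin and LEF1 and 0 of TCF7L1 could be tested. Windows of 5 kb around the start took SOX2 to 3. Without the shortest list LEF1 went to 0. Leaving out a replicate gave 3 to 6 for SOX2, 1 to 4 for β-catenin, 0 to 0 for LEF1 and 0 to 2 for TCF7L1.

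Limma, SOX2-OFF minus CEpiLC. On the log2 fold scales SOX2 went from 2 to 0, β-catenin from 7 to 1, TCF7L1 from 3 to 0, and LEF1 from 0 to 3 with log2(fold + 1) and to 1 with log2(fold + 0.5). With 5000 peaks or equal lengths β-catenin went to 3, and equal length took TCF7L1 to 0. The 5 kb window took LEF1 to 2. Leaving out a replicate gave 0 for SOX2, β-catenin and TCF7L1.

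Limma, SOX2-ON minus CEpiLC (added after seeing the data). On the log2 fold scales SOX2 went from 5 to 1, and β-catenin from 8, LEF1 from 2 and TCF7L1 from 3 to 0. With 5000 peaks or equal lengths β-catenin went to 3 and LEF1 to 1, and equal length took TCF7L1 to 0. Requiring a peak in 1 library took β-catenin to 5 and LEF1 to 1. Without the shortest list LEF1 went to 0. Leaving out a replicate gave 3 to 5 for SOX2, 3 to 4 for β-catenin, 0 for LEF1 and 0 to 2 for TCF7L1.

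Difference between the lines. On both log2 fold scales SOX2 went from 2, β-catenin from 2 and TCF7L1 from 1 to 0. With 5000 peaks β-catenin and TCF7L1 went to 3, and with equal lengths β-catenin went to 3 and TCF7L1 to 0. The 5 kb window gave 1 for SOX2, 4 for β-catenin, 1 in place of 0 for LEF1 and 2 for TCF7L1. Requiring a peak in 1 library took β-catenin to 1, as did leaving out the shortest list, which took TCF7L1 to 0. Leaving out a replicate gave 0 for SOX2, 0 to 1 for β-catenin and 0 for TCF7L1.

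Detection calls. With all deposited peaks every called count went to 0. For CEpiLC against naive ESC, SOX2 went from 1 to 4 with 5000 peaks, 0 with a 10 kb flank and 2 with the 5 kb window. β-catenin went from 0 to 1 with 5000 peaks, the 5 kb window and equal lengths. LEF1 went from 1 to 0 with a 0 kb or 10 kb flank, and TCF7L1 from 3 to 0 with a 0 kb flank or equal lengths and to 1 with the 5 kb window. For SOX2-OFF against SOX2-ON, SOX2 went from 0 to 1 with a 0 kb flank. For SOX2-OFF against CEpiLC, SOX2 went from 1 to 2 with 5000 peaks or the 5 kb window and to 0 with a 10 kb flank, β-catenin from 4 to 1 with a 0 kb flank, LEF1 from 5 to 3 with 5000 peaks, a 0 kb flank, the 5 kb window or equal lengths, TCF7L1 from 3 to 0 with equal lengths and TCF7L2 from 0 to 1 with 5000 peaks. Leaving out a replicate gave, for CEpiLC against naive ESC, 1 to 5 (SOX2), 0 to 3 (β-catenin), 1 to 3 (LEF1), 3 to 6 (TCF7L1) and 0 to 1 (TCF7L2). For SOX2-OFF against SOX2-ON it gave 0 to 2 (β-catenin) and 0 to 1 (LEF1), and for SOX2-OFF against CEpiLC 1 to 4 (SOX2), 5 to 8 (LEF1), 3 to 5 (TCF7L1) and 1 to 3 (TCF7L2).

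The replicate block took the LEF1 count for CEpiLC minus naive ESC from 1 to 0 and the TCF7L1 count for the difference between the lines from 1 to 0, and changed no other count of members by over 1.5 times. Same-numbered libraries deviated together, with a correlation over 0.1, in 0 of 18 pairs for β-catenin, LEF1 and TCF7L2, 1 of 18 for SOX2 and 6 of 18 for TCF7L1. All 3 pairs of SOX2-ON with SOX2-OFF were among those 6, so the numbers paired the libraries in that comparison of TCF7L1 alone. There the replicate block called 117 genes in place of 78, and 0 members with or without it. Depth limits these counts in a way that cannot be measured, since read numbers are unknown.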
